A study of Rattus norvegicus with 15 samples.

Results

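The 10 genes described here cut the cartilage matrix or restrain that cutting, and their signals were followed over the life of the rat knee: the matrix metalloproteinases Mmp2, Mmp3, Mmp9 and Mmp14, the ADAMTS proteases Adamts1, Adamts4 and Adamts5, and the tissue inhibitors of metalloproteinases Timp1, Timp2 and Timp3. A gene was taken as the probe set that carries its symbol alone in the platform annotation. Each of the 10 had exactly 1 such probe set, among 18166 genes named in this way and 36685 probe sets in all. Sprague-Dawley rats gave articular cartilage from the right knee at 5 stages. T0 is the newborn and T1 is youth, T2 is the adult, and the elderly animals form an early stage, T3, and a latter stage, T4. Each stage had 3 arrays of total RNA from knees harvested individually, named biological replicates, and no genotype, treatment, sex or age in days is given in the sources used here. The third T1 array is youth in its title and adult in its source name, and it was kept in T1. The values are log2 signals of an RMA-processed Affymetrix array, in which 1 unit is a doubling, and the signal of a probe set is read against the same probe set on other arrays and not against another gene.

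Cartilage matrix is a network of type II collagen filled with aggrecan, a large proteoglycan that holds water. Matrix metalloproteinases are zinc-dependent enzymes made as inactive proforms: Mmp2 and Mmp9 are the gelatinases, Mmp3 is stromelysin, and Mmp14 is a membrane-anchored collagenase that also activates proMMP2 together with TIMP2. ADAMTS4 and ADAMTS5 are known as the aggrecanases of cartilage, ADAMTS1 cleaves aggrecan and versican more weakly, and the TIMPs bind the active site of these enzymes, with TIMP3 the main inhibitor among them of the ADAMTS group.

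The arrays and the tissue set limits that apply to every gene below. The SD of the signals over probe sets was 2.0 to 2.05 on the arrays of T0 to T2, 1.83 to 1.97 at T3 and 1.48 to 1.71 at T4, so signals at T4 were compressed toward the middle of the range. Ribosomal protein genes (53), which every cell transcribes strongly, had a median of 9.71 to 10.2 at T0 to T2 and of 6.58, 9.04 and 8.92 on the T4 arrays 1, 2 and 3. Of the chondrocyte markers, 9 of 10 listed were measured, and their mean per array was 9.782 to 10.02 at T0, 9.80 to 9.97 at T1, 8.84 to 9.37 at T2, 7.21 to 8.10 at T3 and 6.13 to 7.16 at T4. The markers did not all move alike. Sox9 had stage means between 5.12 and 5.58 and did not vary over the stages (limma moderated F test, adjusted p = 0.183). Chad rose by 3.01 from T0 to T2 (SE 0.491), where 6 of the 9 fell, beside 6.19% of all probe sets. Neutrophil markers (10 of 10 measured) averaged 5.01 to 5.99 at T0, 8.23 to 8.63 at T1, 10.02 to 10.23 at T2, 8.82 to 9.57 at T3 and 6.85 to 9.01 at T4. Skeletal muscle markers (5 of 8 measured) averaged 10.53 to 11.05 at T0, 8.48 to 8.99 at T1, 5.56 to 5.72 at T2, 6.14 to 6.56 at T3 and 6.33 to 8.15 at T4. From T2 to T4, 3 of the 5 rose, where 27.2% of all probe sets rose. In such bulk samples fewer cells of a type and less RNA per cell cannot be told apart, and the part of these shifts in the results was not tested. Among the T2 arrays, replicate 1 was the highest for 9 of the 10 genes, and among the T3 arrays, replicate 3 was the highest for 8 of 10.

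Over the 5 stages 8 of the 10 genes varied and Mmp3 and Adamts4 did not pass the test (limma moderated F test, Benjamini-Hochberg adjusted p under 0.05). That rule called 60.1% of all probe sets. With array weights all 10 passed, Adamts4 at an adjusted p of 0.0243 and Mmp3 at 0.0265. Those weights also raised the probe sets called from 22043 to 30356 of 36685. The adjusted p was lowest for Mmp14 (2.38e-06), Timp1 (1.55e-05) and Mmp2 (3.2e-05) and highest among the called genes for Adamts5 (0.00182). The changes fall into 4 courses. Mmp2, Mmp14, Timp1, Timp2 and Timp3 were high at T0 and T1 and fell from T2 to T4. Adamts1 and Adamts5 were highest in the newborn, but their T4 minus T2 values did not pass in the fit to all arrays. Mmp9 was highest at T1 and T2, and Mmp3 and Adamts4 stayed within a narrow band. Besides Adamts1 and Adamts5, the highest mean lay at T0 for Mmp2, Mmp14, Timp2, Timp3 and Adamts4.

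**Figure D1:**
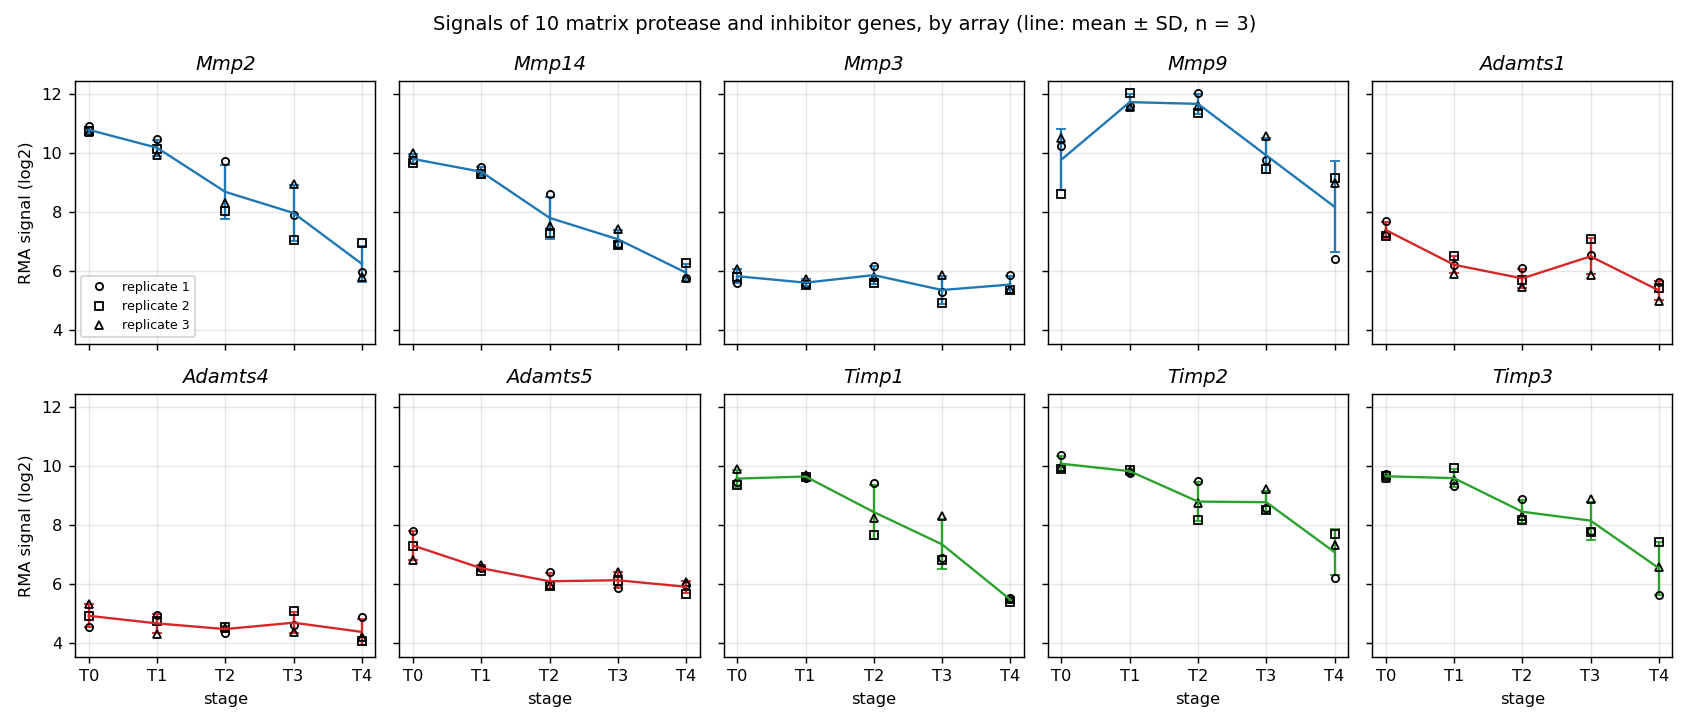
RMA signal (log2, vertical axis) of the 10 genes at stages T0 to T4 (horizontal axis); open symbols are single arrays by replicate number, and the line joins stage means with SD bars (n = 3). Mmp2 and Mmp14 step down from means of 10.80 and 9.81 at T0 to 6.25 and 5.95 at T4, Mmp9 peaks at T1 and T2, and Mmp3 and Adamts4 lie between 4.06 and 6.18 on every array.

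Mmp2, which degrades denatured collagen, was lower at each later stage by its means. Its signal was 10.92, 10.77 and 10.72 on the newborn arrays, 10.48, 10.15 and 9.95 in youth, 9.74, 8.03 and 8.31 in the adult, 7.92, 7.04 and 8.96 in the early elderly and 5.97, 6.96 and 5.81 in the latter-stage elderly. Only the adult and early elderly arrays overlapped between neighbours in this order, and adult replicate 1 and early elderly replicate 3 stood above the other arrays of their stage. Mmp2 fell by 2.11 between T0 and T2 (SE 0.482, 4.32-fold, limma adjusted p = 0.00765). It fell by a further 2.45 from T2 to T4 (SE 0.482, 5.45-fold, limma adjusted p = 0.000867), of which the step from T3 to T4 was -1.73 (limma adjusted p = 0.0118). That last call was lost without T3 replicate 3, where the step was -1.23 (limma adjusted p = 0.0603, range 0.000215 to 0.0684 over the alternatives).

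Mmp14, the membrane enzyme that activates proMMP2, was likewise lower at each later stage by its means. Its newborn arrays read 9.76, 9.67 and 10.01, those of youth 9.55, 9.30 and 9.29 and the adult ones 8.61, 7.30 and 7.52. The early elderly arrays read 6.94, 6.89 and 7.43 and the latter-stage ones 5.77, 6.29 and 5.79. Every stage lay below the one before it except that adult and early elderly arrays overlapped. Mmp14 was the single gene of the 10 that changed from T1 to T2, falling by 1.56 (SE 0.299, 2.96-fold, limma adjusted p = 0.0236), in a step where limma called 0.891% of all probe sets, 0.403% lower and 0.488% higher. Without T1 replicate 1, 2 or 3 or T2 replicate 2 or 3 the change was -1.48, -1.60, -1.61, -1.31 and -1.42 and missed the threshold. It also missed with only the arrays of T1 and T2 (limma adjusted p = 0.0762), and with T1 replicate 3 placed with T2 it was -1.24 (limma adjusted p = 0.942, the highest of a range that began at 0.000689 over the alternatives). The fall from T0 to T2 (-2.0, SE 0.299, 4.0-fold, limma adjusted p = 0.00028) and that from T2 to T4 (-1.86, SE 0.299, 3.63-fold, limma adjusted p = 0.000222) passed under all 22 and 21 alternatives run.

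The profiles of Mmp2 and Mmp14 were close. After each gene's own mean was taken away, their signals differed by a root mean square of 0.394 over the 15 arrays, against 1.51 between Mmp2 and Mmp9. Among 17475 genes open to naming, those nearest to Mmp2 were the isomerase Fkbp9 (0.291), the platelet-derived growth factor receptor Pdgfra (0.347) and the lipid phosphatase Plpp1 (0.354). Those nearest to Mmp14 were the cyclophilin Ppic (0.24), Olfml3 (0.276) and the matrix receptor Dag1 (0.299).

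Timp1, an inhibitor of most secreted MMPs, had a mean of 9.59 in the newborn and 9.66 in youth, and lower means after that. The newborn arrays read 9.48, 9.36 and 9.92 and those of youth 9.61, 9.65 and 9.71. In the adult they read 9.45, 7.66 and 8.25, in the early elderly 6.90, 6.83 and 8.33, and in the latter-stage elderly 5.54, 5.39 and 5.50. Adult replicate 1 reached the newborn range and the other adult arrays did not, while all latter-stage arrays lay below every other array. Timp1 fell by 2.97 from T2 to T4 (SE 0.42, 7.85-fold, limma adjusted p = 0.000101) and from T3 to T4 by 1.88 (SE 0.42, limma adjusted p = 0.00387), and each passed under all 21 alternatives. The T2 minus T0 value was -1.14 (limma adjusted p = 0.107), which passed without T2 replicate 1 (-1.63, limma adjusted p = 0.0111) or T3 replicate 3 (limma adjusted p = 0.0425), in a range of 0.0111 to 0.45 over the alternatives. Without T3 replicate 3 the T3 minus T2 value was -1.58 and passed as well (limma adjusted p = 0.0212, range 0.00971 to 0.521), against -1.10 (limma adjusted p = 0.18) with it.

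Timp2, which binds MMP14 and thereby helps to activate proMMP2, read 10.38, 9.92 and 9.96 in the newborn and 9.77, 9.89 and 9.86 in youth. The adult arrays read 9.50, 8.16 and 8.75, the early elderly 8.59, 8.53 and 9.23 and the latter-stage elderly 6.20, 7.71 and 7.34. The adult and early elderly arrays overlapped, with means of 8.80 and 8.79, and all arrays of T4 lay below those of T3. Timp2 fell by 1.70 from T3 to T4 (SE 0.376, 3.25-fold, limma adjusted p = 0.00366) and from T2 to T4 by 1.72 (SE 0.376, 3.29-fold, limma adjusted p = 0.00174). It also fell by 1.28 from T0 to T2 (SE 0.376, 2.43-fold, limma adjusted p = 0.0357), a call that held in 13 of 22 alternatives. That call was lost after quantile normalization (-1.23, limma adjusted p = 0.0727) and with T1 replicate 3 placed with T2 (-1.02, limma adjusted p = 0.139). It was lost without any 1 of the T0 replicates (-1.14, -1.37 and -1.35 without replicates 1, 2 and 3) and without T1 replicate 3 (-1.28). The same held without T2 replicates 2 (-0.96) or 3 (-1.26), with adjusted p of up to 0.189. With the replicate number as a block it was at -1.28 (limma adjusted p = 0.0592, lowest over the alternatives 0.000815).

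Timp3, which is held in the matrix and inhibits the aggrecanases, read 9.73, 9.68 and 9.59 in the newborn, 9.34, 9.93 and 9.54 in youth and 8.90, 8.17 and 8.31 in the adult. The early elderly arrays read 7.81, 7.76 and 8.91 and the latter-stage ones 5.63, 7.43 and 6.57. Newborn and youth overlapped, adult and early elderly overlapped, and the other neighbours did not. Timp3 fell by 1.92 from T2 to T4 (SE 0.4, 3.77-fold, limma adjusted p = 0.00128) and from T3 to T4 by 1.61 (SE 0.4, 3.06-fold, limma adjusted p = 0.00653). The T3 to T4 call was lost after quantile normalization (-1.23, limma adjusted p = 0.0525) and with only the arrays of T3 and T4 (limma adjusted p = 0.0735). Its T2 minus T0 value of -1.20 (2.30-fold lower) did not pass (limma adjusted p = 0.0678), although the arrays of both stages did not overlap. It passed in 7 of 22 alternatives (limma adjusted p of 0.000629 to 0.231), among them those without T3 replicate 3, T4 replicate 1 or T4 replicate 2, each at -1.20.

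Timp2 was among the 3 genes nearest to Timp3, at a root mean square difference of 0.252, the smallest between any pair of the 10. App, the amyloid precursor gene, was nearest to both (0.235 and 0.199), and Lrp1, the endocytic receptor that clears ADAMTS5 and TIMP3 from the matrix, was among the 3 nearest to both (0.248 and 0.232). Those nearest to Timp1 were Tmem45a (0.247), Enpp1, which makes pyrophosphate (0.294), and Mxra8 (0.307). RefSeq's promoter table (rat build GRCr8, 250 bases before to 50 after a start site of the gene) held 6 of the 10 genes. The promoters of Timp2 and Timp3 are shown because their signals lay closest together among the members. They lie on the minus strand at chr10:104089165-104089464 and chr7:19459509-19459808 and are printed 5′ to 3′, with GC boxes (GGGCGG, searched on both strands with no overlap to the other motifs) in capitals.
Timp2: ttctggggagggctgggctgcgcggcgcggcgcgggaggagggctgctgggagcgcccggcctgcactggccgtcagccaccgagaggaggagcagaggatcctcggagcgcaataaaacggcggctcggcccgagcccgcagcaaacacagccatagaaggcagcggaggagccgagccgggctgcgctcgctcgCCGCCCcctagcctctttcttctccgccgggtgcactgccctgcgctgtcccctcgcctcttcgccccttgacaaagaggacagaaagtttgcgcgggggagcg
Timp3: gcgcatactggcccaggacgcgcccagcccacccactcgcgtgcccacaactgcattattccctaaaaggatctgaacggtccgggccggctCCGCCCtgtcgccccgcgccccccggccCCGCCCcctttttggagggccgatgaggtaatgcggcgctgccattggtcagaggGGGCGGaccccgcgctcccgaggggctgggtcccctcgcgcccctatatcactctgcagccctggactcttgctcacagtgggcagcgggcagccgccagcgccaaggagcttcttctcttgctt
The first holds 1 GC box and the second 3. A GC box was found in 33.1% of 33469 promoters of that length. G and C made up 70.3% of the Timp2 promoter and 68.7% of the Timp3 promoter, against a median of 51.7% over those promoters. Neither sequence holds the AP-1 motif TGANTCA or the TATA box TATAAA.

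Mmp9, the gelatinase of neutrophils and osteoclasts, had another course from Mmp2. The newborn arrays read 10.24, 8.61 and 10.52. Those of youth read 11.62, 12.05 and 11.56 and the adult ones 12.05, 11.38 and 11.60, so that every array of T1 and T2 lay above every newborn array. The early elderly arrays read 9.76, 9.46 and 10.58 and the latter-stage ones 6.40, 9.17 and 8.98, all below the adult. By means the order was T1, T2, T3, T0 and T4, where T1 and T2, T3 and T0, and T0 and T4 overlapped. Mmp9 fell by 3.49 from T2 to T4 (SE 0.632, 11.2-fold, limma adjusted p = 0.000491), the largest change of the 10 genes in the 6 comparisons, and this passed under all 21 alternatives.

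The higher values of Mmp9 at T1 and T2 than at T0 did not pass in the fit to all arrays. The T1 minus T0 value was 1.95 (SE 0.632, 3.87-fold, limma adjusted p = 0.087) and the T2 minus T0 value 1.89 (SE 0.632, 3.70-fold, limma adjusted p = 0.07). Without T4 replicate 1 these passed (limma adjusted p = 0.00815 and 0.00643), as did the T3 minus T2 value of -1.74 (limma adjusted p = 0.0386, against 0.162 with it). Over the alternatives the adjusted p ran from 0.00109 to 0.383, from 0.00115 to 0.321 and from 0.00909 to 0.454. The T4 minus T3 fall of 1.75 (limma adjusted p = 0.0389) was lost without T3 replicate 1 (-1.83), T3 replicate 3 (-1.42) or T4 replicate 1 (-0.85, limma adjusted p = 0.187, range 0.0143 to 0.201). It was also lost after quantile normalization (-1.06, limma adjusted p = 0.201) and with array weights (-0.87, limma adjusted p = 0.101). With only the arrays of T3 and T4 it missed the threshold too (limma adjusted p = 0.121).

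Markers of several cell types moved beside Mmp9, among them those of neutrophils and osteoclasts, which are known to make it. The T2 arrays, where Mmp9 was high, held the highest neutrophil marker means. The 2 did not move together at every step. Neutrophil markers averaged 8.46 at T1, 10.1 at T2 and 9.18 at T3, while Mmp9 had means of 11.74, 11.68 and 9.93. From T0 to T1, 8 of the 10 neutrophil markers rose and none fell, among them the granule enzymes Mpo (5.17, SE 0.639) and Elane (4.17, SE 0.495). At that step 4.01% of all probe sets rose, a share that applies to each T0 to T1 count below. Osteoclast markers (4 of 7 measured) averaged 5.59 to 6.61 at T0, 7.35 to 7.67 at T1, 6.99 to 7.82 at T2, 6.23 to 6.43 at T3 and 5.26 to 6.04 at T4, and the pump subunit Atp6v0d2 (2.28, SE 0.53) and the receptor Oscar (1.09, SE 0.25) rose from T0 to T1. Newborn replicate 2, the lowest of the newborn arrays for Mmp9, was also the lowest of them in the neutrophil (5.01) and osteoclast (5.59) means. This was not particular to those cells. It was the lowest newborn array for macrophage (6.92), osteoblast (6.55), chondrocyte (9.78) and synovial and tendon fibroblast (8.48) markers too. For skeletal muscle (11.05) and endothelial (7.53) markers it was the highest. Between T2 and T4, 6 of the 10 neutrophil and 3 of the 4 osteoclast markers fell, where 29.4% of all probe sets fell. Among probe sets with a mean of 8 to 10 over T0 to T2, 87.6% fell. Osteoblast markers (6 of 6 measured) averaged 6.55 to 7.62 at T0, 8.95 to 9.32 at T1, 7.92 to 8.85 at T2, 7.74 to 8.03 at T3 and 5.94 to 7.32 at T4, and 5 of 6 rose from T0 to T1. Erythroid markers (4 of 7 measured) averaged 6.18 to 7.25 at T0, 10.62 to 10.72 at T1, 10.21 to 10.41 at T2, 10.13 to 10.39 at T3 and 7.47 to 9.96 at T4, and all 4 rose from T0 to T1. Of 7 macrophage markers, which averaged 6.92 to 7.28 at T0 and 7.62 to 7.81 at T1, 2 rose at that step, Cd68 by 1.79 (SE 0.283). The part of any of these cells in the signals of Mmp9, Mmp8, Mmp13 and Ctsk was not tested. The genes nearest to Mmp9 in profile were the proton pump subunit Atp6v0e1 (0.478), catalase Cat (0.504) and the mineralization enzyme Alpl (0.522).

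**Figure D2:**
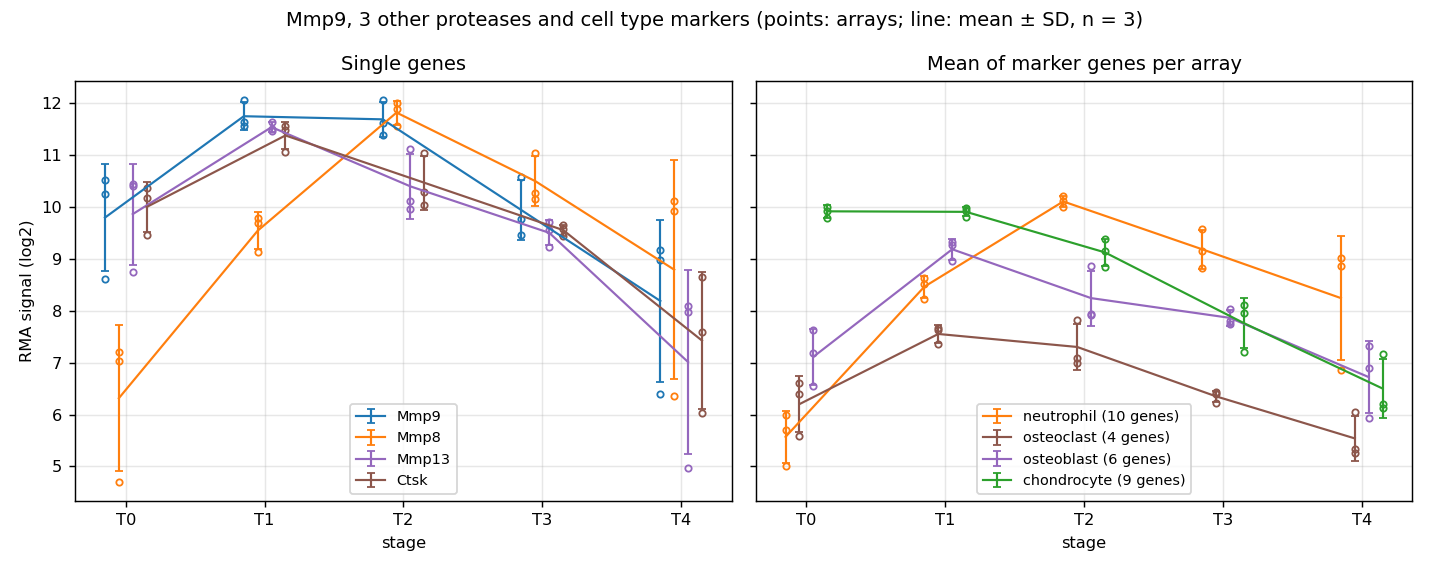
Left, RMA signal (log2) of Mmp9, the neutrophil collagenase Mmp8, the collagenase Mmp13 and the osteoclast cathepsin Ctsk by stage; right, the mean signal of marker genes per array. Points are arrays and lines are means ± SD (n = 3). Mmp9 and the osteoclast markers are higher at T1 and T2 than at T0 and T4 by their means, the neutrophil markers peak at T2 (10.02 to 10.23) and the chondrocyte markers are highest at T0 and T1; heights are not compared between genes.

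Other proteases of these cells are given beside Mmp9. Mmp8, stored in neutrophil granules, read 7.03, 4.71 and 7.21 at T0, 9.79, 9.13 and 9.69 at T1 and 11.55, 11.88 and 11.99 at T2. It rose from T0 to T1 by 3.22 (SE 0.817, limma adjusted p = 0.0243) and from T0 to T2 by 5.50 (SE 0.817, 45.1-fold, limma adjusted p = 0.000268), with no overlap of arrays. Ctsk, the collagen-degrading cathepsin of osteoclasts, and Mmp13, a collagenase of hypertrophic chondrocytes and bone cells, had their highest means at T1, where the Mmp13 arrays read 11.49, 11.46 and 11.63. Their T1 minus T0 values of 1.37 and 1.67 did not pass (limma adjusted p = 0.132 and 0.202), and from T2 to T4 they fell by 3.03 (SE 0.491) and 3.38 (SE 0.671).

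Adamts1 and Adamts5, which lie next to each other on chromosome 11 with 0 genes annotated between them, were highest in the newborn. Adamts1 read 7.70, 7.21 and 7.28 at T0, 6.23, 6.51 and 5.92 at T1 and 6.09, 5.70 and 5.47 at T2. At T3 it read 6.54, 7.09 and 5.88 and at T4 5.64, 5.41 and 4.995. All newborn arrays lay above all others, and by means T3 was the next, with arrays that overlapped those of T1. Adamts1 was the single gene of the 10 that changed from T0 to T1, falling by 1.18 (SE 0.3, 2.27-fold, limma adjusted p = 0.0246), in a step where limma called 7.56% of all probe sets, 3.54% lower and 4.01% higher.

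The first step of Adamts1 was lost after quantile normalization (limma adjusted p = 0.088), with T1 replicate 3 placed with T2, and without T0 replicate 1, 2 or 3 (-1.03, -1.27 and -1.24) or T1 replicate 1 or 3 (-1.18 and -1.03), with adjusted p of up to 0.126 and down to 0.000779 over the alternatives. The fall from T0 to T2 (-1.64, SE 0.3, 3.12-fold, limma adjusted p = 0.00142) passed under all 22 alternatives. From T2 to T3 the value was 0.75 (limma adjusted p = 0.193), which passed without T3 replicate 3 (1.06, limma adjusted p = 0.0331, range 0.0149 to 0.591), and from T3 to T4 Adamts1 fell by 1.16 (SE 0.3, 2.23-fold, limma adjusted p = 0.0082). Its T4 minus T2 value was -0.41 (limma adjusted p = 0.259).

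Adamts5, the main aggrecanase of mouse cartilage, read 7.81, 7.31 and 6.82 in the newborn and 6.54, 6.45 and 6.64 in youth. The adult arrays read 6.41, 5.93 and 5.96, the early elderly 5.88, 6.11 and 6.41 and the latter-stage elderly 5.98, 5.68 and 6.09. Newborn arrays lay above all others and those of youth above all later ones, while T2, T3 and T4 overlapped. Adamts5 fell by 1.21 from T0 to T2 (SE 0.25, 2.32-fold, limma adjusted p = 0.00363), under all 22 alternatives. Its T1 minus T0 value was -0.77 (limma adjusted p = 0.0875) and passed without T0 replicate 3 (-1.01, limma adjusted p = 0.0276, range 0.0136 to 0.393). The T4 minus T2 value was -0.19 (limma adjusted p = 0.539), and 0.11 after quantile normalization. The genes nearest to Adamts5 were the transcription factor Tbx18 (0.172), C6h14orf28 (0.176) and Clmn (0.197), and those nearest to Adamts1 were Tmod2 (0.288), Vstm4 (0.298) and Dzip1l (0.345).

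Adamts4, the aggrecanase that inflammatory signals induce in other settings, gave signals from 4.06 to 5.32 over the 15 arrays. Its arrays ran from 4.55 to 5.32 at T0, from 4.31 to 4.95 at T1, from 4.35 to 4.56 at T2, from 4.38 to 5.09 at T3 and from 4.06 to 4.88 at T4. All stages that stood next to each other by their means overlapped. None of the 6 comparisons passed, with values between -0.45 and 0.22, and none passed with array weights.

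Mmp3, a stromelysin that activates other proMMPs and is inducible by interleukin-1 in other settings, also had overlapping arrays at all neighbouring stages. The newborn arrays ran from 5.61 to 6.09, those of youth from 5.52 to 5.74, the adult from 5.61 to 6.18, the early elderly from 4.93 to 5.87 and the latter-stage elderly from 5.37 to 5.86. The 6 changes lay between -0.51 and 0.26 and none passed. With array weights the T3 minus T2 value of -0.54 and the T4 minus T2 value of -0.44 passed (limma adjusted p = 0.0357 and 0.0235). No detection calls are part of the values used here, so whether Adamts4 and Mmp3 lay above the background of their probes is not known. The Mmp3 promoter is shown to set it beside those of Timp2 and Timp3, whose courses differed. It lies on the plus strand at chr8:12925031-12925330 (RefSeq, GRCr8), with an AP-1 motif (TGANTCA) and a TATA box (TATAAA) in capitals.
Mmp3: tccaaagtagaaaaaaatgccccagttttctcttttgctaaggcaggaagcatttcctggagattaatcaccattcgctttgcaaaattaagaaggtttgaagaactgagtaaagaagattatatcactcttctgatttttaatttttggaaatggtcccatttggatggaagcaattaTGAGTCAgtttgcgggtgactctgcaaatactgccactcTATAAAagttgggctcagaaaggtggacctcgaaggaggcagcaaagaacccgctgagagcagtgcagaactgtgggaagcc
The AP-1 match begins at position -71 and the TATA box at position -32, counted from the start site on which the promoter window is set. For Mmp3 that site is not the annotated gene start, chr8:12925267. The AP-1 motif was found, on either strand, in 7.33% and the TATA box in 14.2% of the 33469 promoters, and among the 6 promoters of these genes 1 held AP-1 and 2 the TATA box. G and C made up 42.0% of the Mmp3 promoter, and it holds no GC box.

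Read by comparison, no gene of the 10 rose in any of the 6, and 1 fell at each of the first 2 steps. Between T0 and T2, 5 genes fell (Mmp2, Mmp14, Adamts1, Adamts5 and Timp2), where limma called 12.7% of all probe sets and 6.19% fell, and the median of the 10 was -1.21 against -0.024 over all genes. Between T3 and T4, 7 fell (the 5 of the common course, Mmp9 and Adamts1), where 42.2% of all probe sets were called, 25.8% lower and 16.5% higher, with a median of -1.39 against -0.15. That count was 5 after quantile normalization and 1 with only the T3 and T4 arrays in the fit. With these settings 13240 and 2532 of the 36685 probe sets were called. Between T2 and T4, 6 fell (the same course and Mmp9), where 56.5% of all probe sets were called, 29.4% lower and 27.2% higher, with a median of -1.79 against -0.12. At the step from T2 to T3 limma called 0 of 10 and 0.15% of all probe sets, 0.112% lower and 0.0382% higher. Of the 10, 4 had an unadjusted p under 0.05 (3 lower, and Adamts1 higher) where 19.8% of all probe sets had one. The count of calls at this step was 2 without T3 replicate 3, 1 without T4 replicate 1 and 5 with array weights. In those settings 4165, 1961 and 10464 of the 36685 probe sets were called, against 55 without these changes. These comparisons share arrays: the adult arrays stand in both T2 minus T0 and T4 minus T2.

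The 5 genes of the common course had bright signals, and bright probe sets as a whole shifted at T4. Among the 2475 probe sets with a mean of 8 to 10 over T0 to T2, which include these 5, 87.6% fell from T2 to T4, with a median of -1.95 and quartiles of -2.43 and -1.47. Of these, Mmp2 (-2.45) and Timp1 (-2.97) lay below the lower quartile, and Mmp14 (-1.86), Timp2 (-1.72) and Timp3 (-1.92) lay between the quartiles. Between T0 and T2 the same probe sets had a median of -0.021 and quartiles of -0.45 and 0.46, 11.3% fell, and all 5 genes lay below the lower quartile, from -1.14 (Timp1) to -2.11 (Mmp2). At the step from T3 to T4, 82.8% of these probe sets fell, with a median of -1.55 and quartiles of -1.93 and -1.16. Mmp2 (-1.73), Timp1 (-1.88), Timp2 (-1.70) and Timp3 (-1.61) lay between these quartiles, and Mmp14 (-1.14) fell less than the upper one. Mmp9 lay at 10 to 12, where the T4 minus T3 median was -1.75, equal to the value of Mmp9 when rounded. In that band 421 probe sets had a T4 minus T2 median of -2.08 and quartiles of -2.69 and -1.14, and its -3.49 was below them. Quantile normalization, which gives every array the same distribution, left T4 minus T2 values of -1.88 for Mmp2, -1.41 for Mmp14, -2.83 for Mmp9, -2.75 for Timp1 and -1.27 for Timp3, which passed, and -0.87 for Timp2 (limma adjusted p = 0.0871, range 4.99e-05 to 0.0871), which did not.

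**Figure D3:**
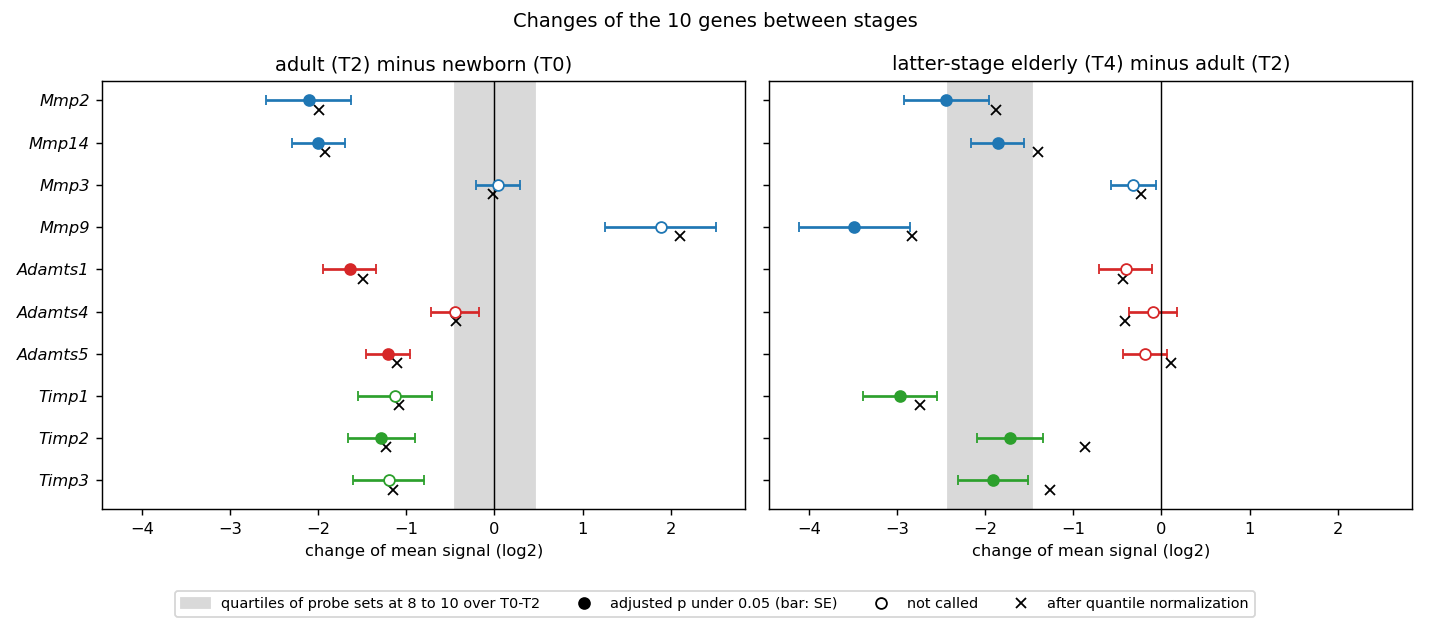
Change of the mean signal (log2, horizontal axis, bar: SE) of each gene from T0 to T2 (left) and from T2 to T4 (right), filled where the limma adjusted p was under 0.05; crosses give the change after quantile normalization, and the grey band spans the quartiles of the 2475 probe sets with a mean of 8 to 10 over T0 to T2, which apply to Mmp2, Mmp14, Timp1, Timp2 and Timp3. These 5 lie left of the band from T0 to T2, and 3 of them lie inside it from T2 to T4.

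Markers of connective tissue other than cartilage also changed. Synovial and tendon fibroblast markers (7 of 7 measured) averaged 8.48 to 8.55 at T0, 7.19 to 7.58 at T1, 6.02 to 6.75 at T2, 5.86 to 6.59 at T3 and 5.51 to 5.75 at T4. From T0 to T2, 5 of the 7 fell, where 6.19% of all probe sets fell. Between T2 and T4, 3 fell, 1 rose (the tendon factor Scx, by 1.12, SE 0.328), and Tnmd (0.058) and Pi16 (-0.011) were among those that did not pass. In that comparison 29.4% of all probe sets fell and 27.2% rose. Adult replicate 1 and early elderly replicate 3, the high arrays for Mmp2 and Timp1, were also the highest of their stages for these markers (6.75 and 6.59). They were not particular to them: adult replicate 1 was the highest adult array for chondrocyte (9.37), osteoclast (7.82), macrophage (7.89), osteoblast (8.85) and endothelial (7.03) markers too, and early elderly replicate 3 the highest of its stage for neutrophil (9.57) and endothelial (7.12) markers. Their part in the signals of Mmp2, Mmp14 and the TIMPs was not tested.

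Among 15 other MMPs measured of 17 listed, changes ran in both directions. Between T0 and T2, 3 fell and 1 rose, the rise being Mmp8. In that comparison 6.19% of all probe sets fell and 6.51% rose, shares that apply to each list below. Of the membrane-type enzymes, Mmp15 (-1.55, SE 0.282, limma adjusted p = 0.00139) and Mmp16 (-1.17, SE 0.312, limma adjusted p = 0.0209) fell, as Mmp14 did. So did Mmp19 (-0.69, SE 0.194), named after its value was seen. Mmp15 differed from Mmp14 by step. It fell from T0 to T1 (-1.195, SE 0.282, limma adjusted p = 0.0159), and its T4 minus T2 value was 0.11 (limma adjusted p = 0.752). From T2 to T4, 4 fell (Mmp13, Mmp8, Mmp16 and Mmp19) and 5 rose, led by the epithelial matrilysin Mmp7 (1.03, SE 0.255, limma adjusted p = 0.00381), in a comparison where 27.2% of all probe sets rose. Olfactory receptor genes (68), which cartilage is not known to use, had medians of 2.80 to 3.00 at T2 and 3.84 to 4.54 at T4.

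Of 11 other ADAMTS proteases measured of 16 listed, 4 fell and 1 rose from T0 to T2. Adamts12, which cleaves COMP, fell at both steps: by 1.16 from T0 to T1 (SE 0.226, limma adjusted p = 0.00415) and by 1.10 from T1 to T2 (limma adjusted p = 0.0378), in all by 2.26 (SE 0.226, 4.78-fold, limma adjusted p = 7.82e-06). Adamts19 (-1.49, SE 0.303), the aggrecan- and versican-cleaving Adamts15 (-0.97, SE 0.284) and the procollagen N-proteinase Adamts2 (-0.88, SE 0.273, limma adjusted p = 0.0484) fell and Adamts18 rose (0.95, SE 0.245, limma adjusted p = 0.0166). From T2 to T4, 5 fell and 3 rose, where 29.4% of all probe sets fell and 27.2% rose, shares that apply to each list below, with Adamts9 at -1.60 (SE 0.24, limma adjusted p = 0.000146) and Adamts15 at 1.11 (SE 0.284, limma adjusted p = 0.00463).

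Serine and cysteine proteases and ADAMs changed as follows. Between newborn and adult, 5 of 13 cathepsins and serine proteases fell, led by the plasminogen activator Plat (-2.44, SE 0.261, limma adjusted p = 1.4e-05), the lysosomal Ctsl (-1.80, SE 0.252) and Prss23 (-2.36, SE 0.34), and none rose. Of 7 ADAMs, Adam9 fell (-0.59, SE 0.169) and Adam8, a leukocyte and osteoclast protease, rose (2.59, SE 0.406, limma adjusted p = 0.000406). By T4, against T2, 9 of the 13 fell and none rose, with Htra1 (-2.33, SE 0.395), Fap (-2.59, SE 0.371) and Ctsk having the smallest p, and 6 of 7 ADAMs fell and 1 rose.

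Inhibitors and cofactors outside the 10 genes are given from T0 to T2 first. Of 13 genes listed as other inhibitors 1 fell, Serpinh1, a collagen chaperone listed as a member of the serpin family (-1.58, SE 0.288, limma adjusted p = 0.00142). Timp4, the fourth TIMP, stood at -0.62 (limma adjusted p = 0.313). Of 8 genes of activation and clearance 3 fell: Lrp1 (-1.12, SE 0.316, limma adjusted p = 0.0288), Sdc4, a syndecan that binds ADAMTS5 (-1.001, SE 0.207), and the collagen uptake receptor Mrc2 (-1.40, SE 0.243). By T4, against T2, 7 genes of the inhibitor list fell and 2 rose, with the membrane-anchored MMP inhibitor Reck at -1.74 (SE 0.351). Of the activation and clearance genes 7 of 8 fell, among them Furin, the convertase that processes proMMP14 and proADAMTS enzymes (-1.28, SE 0.224), and Lrp1 (-2.02, SE 0.316). Timp4 stood at -0.044 (limma adjusted p = 0.917).

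Genes of the matrix that these enzymes cut fell too. Between newborn and adult, 6 of 11 fell, with the proteoglycan versican, Vcan (-2.05, SE 0.299, limma adjusted p = 0.000229), and the collagen IX chain Col9a1 (-2.04, SE 0.452, limma adjusted p = 0.00623), while type II collagen, Col2a1, stood at -0.45 (limma adjusted p = 0.81). Against T2, all 11 were lower and called at T4, with a list median of -3.12, Acan at -3.56 (SE 0.47) and Col2a1 at -3.91 (SE 0.557). The list medians of the other groups from T2 to T4 were 0.11 for the other MMPs, -0.26 for the other ADAMTS proteases, -1.14 for ADAMs, -1.45 for cathepsins and serine proteases, -1.07 for other inhibitors and -0.92 for activation and clearance, against -0.12 over all genes. The lists were not matched for signal level. Probe sets with a mean of 8 to 10 over T0 to T2 had a T4 minus T2 median of -1.95, and those at 10 to 12 one of -2.08.

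**Figure D4:**
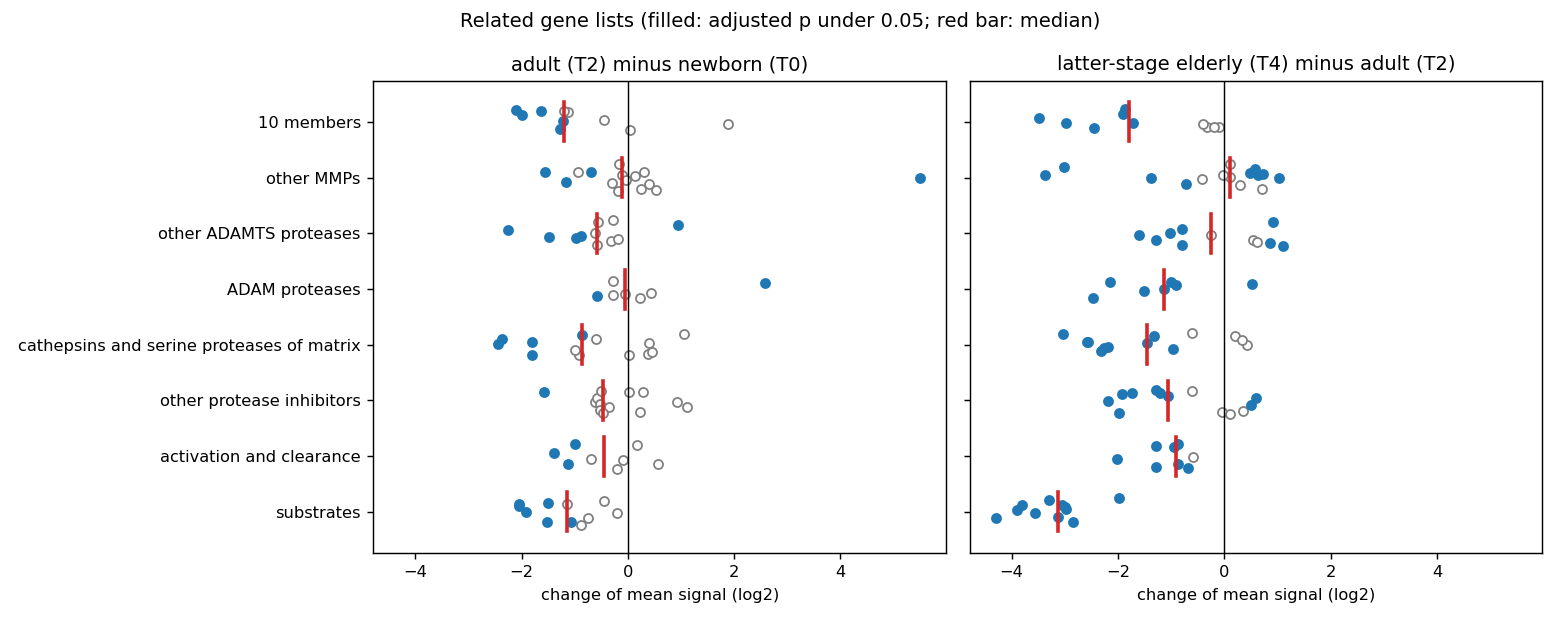
Change of the mean signal (log2, horizontal axis) of each gene in the 10-gene set and in 7 related lists from T0 to T2 (left) and from T2 to T4 (right); filled points had a limma adjusted p under 0.05 and red bars mark list medians. The isolated point at 5.50 on the left is Mmp8, and all 11 matrix genes lie below 0 on the right.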

How the data were processed

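Total RNA of rat knee cartilage was labelled with biotin and hybridised to RaGene 2.0 ST arrays, per the labels' protocols. The deposited values are log2 signals. The submitters' processing notes name RMA, which gives arrays a common distribution of probe signals and can remove part of a change that most transcripts share. Neither its version nor a genome build is given in the sources used here. The number of arrays limits the precision. Stage means were estimated by lmFit and eBayes of limma 3.58.1 (R 4.3.3) from the 15 arrays together, with Benjamini-Hochberg adjustment over 36685 probe sets within a comparison and a call at an adjusted p under 0.05. The procedure was tested on simulated data in which each probe set had the same spread at every stage. Such data cannot show how it behaves with the unequal spread of these arrays. P-values measure the spread between arrays that the labels call biological replicates. The members and lists were chosen with earlier results of these data known, and the bands of signal (8 to 10 and 10 to 12) after seeing the data. Named beside the 10 genes were up to 3 called genes of a list with the smallest p, a few fixed genes (Mmp13, Mmp8, Adamts15, Adamts2, Timp4, Ctsk, Col2a1, Acan, Sox9) and the 3 nearest profiles per gene among symbols outside those that begin with Vom, Snor, Mir, Olr, RGD or LOC, with an SD over arrays of at least that of the gene divided by 2. Alternatives were quantile normalization, a mean signal of at least 5, array weights, only the arrays compared, T1 replicate 3 placed with T2, the replicate number as a block, no T4 arrays and leaving out each array. Replicate numbers did not pair arrays across stages: 1 of 30 same-numbered pairs had a correlation of deviations above 0.1.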

Additional observations from a re-analysis of the deposited data

How the results depend on the processing

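Of the 28 calls made on the 10 genes, 18 held under every alternative run. The 28 include the 8 calls of the F test, which all held and have no sign to change. No call made between 2 stages changed sign, but many of them were lost under at least 1 alternative. Members called from T0 to T1 numbered 1, against 0 after quantile normalization or with T1 replicate 3 placed with T2, 3 with array weights, 2 with only the arrays compared or without the T4 arrays, and 0 to 2 leaving out single arrays. From T1 to T2 the 1 became 5 with array weights, 0 with only the arrays compared or T1 replicate 3 moved, and 0 to 1 leaving out single arrays. From T2 to T3 the 0 became 5 with array weights, 1 without the T4 arrays and 0 to 2 leaving out single arrays. From T0 to T2 the 5 became 8 with array weights, and from T3 to T4 the 7 became 1 with only the arrays compared. With the replicate number as a block, members called were 8 over all stages, 1, 1, 0 and 7 at the 4 steps, 4 from T0 to T2 and 6 from T2 to T4, and no call but that of Timp2 from T0 to T2 changed. The weights of limma were estimated without reaching its convergence tolerance. Another choice of probe set was not run, since each member has 1, and the filter at 5 leaves out Adamts4.

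Probe sets called in all changed more. From T0 to T1 the 2772 became 6852 with array weights, 5358 with only the arrays compared, 1777 with T1 replicate 3 moved and 1796 to 3846 leaving out single arrays. From T1 to T2 the 327 became 147 after quantile normalization, 2381 with array weights, 596 with only the arrays compared, 9 with T1 replicate 3 moved, 604 without the T4 arrays and 108 to 674 leaving out single arrays. From T2 to T3 the 55 became 10, 137 with a mean signal of at least 5, 10464, 0, 32 with the replicate block, 1895 and 0 to 4165 under the same settings. From T0 to T2 the 4659 became 9230 and 7131 (weights, arrays compared), from T3 to T4 the 15493 became 2532 (arrays compared), from T2 to T4 the 20728 became 12774 and over all stages the 22043 became 14526 (signal of at least 5, fewer probe sets tested) and 9366 (no T4 arrays, fewer samples). Otherwise the cause was not tested.

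Values of 10 uncalled results changed sign, 22 times in all. They were Adamts5 from T2 to T3 (-0.11 with array weights, -0.10 with T1 replicate 3 moved, -0.10 to 0.19 leaving out single arrays), from T2 to T4 (0.11 after quantile normalization) and from T3 to T4 (0.034 after quantile normalization, 0.10 with weights), Mmp3 from T0 to T2 (-0.019 after quantile normalization, -0.12 to 0.17 leaving out single arrays) and from T3 to T4 (-0.028 to 0.44 leaving out single arrays), and Timp3 from T0 to T1 (0.042 after quantile normalization, -0.23 to 0.068 leaving out single arrays). The others were Timp2 from T2 to T3 (0.24 after quantile normalization, -0.34 to 0.33 leaving out single arrays), Mmp9 from T1 to T2 (-0.25 to 0.089), Timp1 from T0 to T1 (-0.043 to 0.24) and Adamts4 from T2 to T4 (-0.35 to 0.063), all leaving out single arrays.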
